A study of Mus musculus with 6 samples.

Results

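miR-23, miR-24 and miR-27 are made together from a pair of paralogous gene clusters. The members were every mouse miRNA on the array with the name of a 3p product of these hairpins, which gave 5 of 1247 miRNAs: mmu-miR-23a-3p, mmu-miR-23b-3p, mmu-miR-24-3p, mmu-miR-27a-3p and mmu-miR-27b-3p (mmu, for mouse, is left out below). The 6 5p products of the same hairpins were read beside them. A miRNA guides a silencing complex to messenger RNAs, mainly by pairing of the short seed near its 5′ end. miR-27 is known to repress Pparg and other genes of fat storage, and miR-24 to repress cell cycle genes such as E2f2 and Myc. In liver, the clusters are best known from endothelial cells and from hepatic stellate cells, the fat-storing cells that turn into matrix-producing cells during fibrosis.

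All animals were male C57BL/6 mice, 7 weeks old when treatment began. The 3 mice of the treated group were given carbon tetrachloride (CCl4), a hepatotoxic solvent, by intraperitoneal injection. Each dose was 0.6 mL per kg, carried in corn oil, and there were 2 doses weekly for 10 weeks. The 3 controls were given corn oil alone, in equal volume. Total RNA of each liver was hybridized to its own 1-color array. For each miRNA the scanner software summed the background-subtracted spot signals into a total signal, a linear intensity, and flagged the miRNA as detected or not. In the corn oil livers 193, 186 and 187 miRNAs were flagged as detected, and in the CCl4 livers 245, 227 and 334.

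The liver label was checked with miR-122-5p, the defining miRNA of hepatocytes. Its total signal was 17855, 16613 and 18345 in the corn oil livers and 13110, 15544 and 2158 in the CCl4 livers. CCl4 replicate 3 thus stood apart from the 5 other arrays, with the lowest miR-122-5p signal and the most miRNAs detected, and results are given with and without it. The CCl4 arrays lay in row 1 and the corn oil arrays in row 2 of the same slide, so slide row and treatment cannot be told apart.

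The a cluster holds Mir23a, Mir27a and Mir24-2 within 404 bases of chromosome 8, and the b cluster holds Mir23b, Mir27b and Mir24-1 within 792 bases of chromosome 13, inside the span of the protein-coding gene Aopep. Both are transcribed from the plus strand. RefSeq (GRCm38.p6) held mature sequences for 4 of the 5 members and for 6 of the 6 5p products. The members are shown because the comparison turns on which copies the array can tell apart, with the seed (bases 2 to 8 from the 5′ end) in capitals.
miR-23a-3p, chr8:84208563-84208583: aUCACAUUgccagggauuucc
miR-27a-3p, chr8:84208727-84208747: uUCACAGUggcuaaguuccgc
miR-27b-3p, chr13:63300760-63300780: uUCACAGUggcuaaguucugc
miR-24-3p, chr8:84208875-84208896 and chr13:63301251-63301272: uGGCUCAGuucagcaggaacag
miR-27a-3p and miR-27b-3p share their seed and differ by C19U alone, counted from 1 at the 5′ end with the miR-27a-3p base first. The miR-23a-3p and miR-27a-3p seeds differ by U7G, with the miR-23a-3p base first. The mature miR-24-3p is identical from Mir24-2 and Mir24-1, so its signal cannot be assigned to either cluster. How much each miR-27 probe set also binds the other miR-27 was not tested, nor was this tested for miR-23a-3p and miR-23b-3p.

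The question of the comparison was how chronic CCl4 injury changes liver miRNA levels. All 5 members were detected on all 6 arrays, with 100% of their 40 spots well above background, and the software's error of their total signals was 7.14% to 8.77% of the signal. They therefore entered the test of the 166 miRNAs detected on every array, run with limma on log2 total signals after quantile normalization. To be called, a miRNA needed both an adjusted p (Benjamini-Hochberg) under 0.05 and a change over 2-fold.

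For miR-27a-3p, from the a cluster, the total signal before normalization was 85.6, 74.3 and 91.2 in the corn oil livers and 309, 212 and 1844 in the CCl4 livers. Every CCl4 liver lay above every corn oil liver, and CCl4 replicate 3 lay far above the others. On this unnormalized scale the median log2 change of all 166 miRNAs was 0.99. Non-members such as miR-126-3p, miR-29b-3p and miR-19b-3p were also separate on it, so such a separation is not particular to a member. The share of all miRNAs separate on it was not counted. After quantile normalization the mean of miR-27a-3p was 7.04 ± 0.04 (SD, log2, n = 3) with corn oil and 8.30 ± 0.73 with CCl4. Its groups again did not overlap. The log2 change was 1.26 (SE 0.38, limma adjusted p = 0.091). It missed the threshold with all arrays, and without CCl4 replicate 3 it was 0.86 (SE 0.07, adjusted p = 0.0028), which passes the adjusted p but is 1.81-fold. Over all settings its change remained positive and its adjusted p ranged from 0.0015 to 0.27.

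For miR-23a-3p, the first miRNA of the a cluster, the total signal was 120.1, 109 and 139.9 with corn oil and 325, 218 and 2178 with CCl4. The groups were separate, with CCl4 replicate 2 the nearest to the corn oil livers and CCl4 replicate 3 the farthest. After normalization the means were 7.53 ± 0.09 and 8.50 ± 0.90 (SD, log2, n = 3 each), a change of 0.97 (SE 0.46, limma adjusted p = 0.22). With that liver left out the change was 0.48 (SE 0.13, adjusted p = 0.046), 1.39-fold. Its adjusted p ranged from 0.0091 to 0.44 over all settings, in each of which the change was positive.

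For miR-24-3p, which both clusters encode, the total signal was 199.7, 186 and 222 with corn oil and 439.9, 319 and 2913 with CCl4. Here too the CCl4 livers lay above all corn oil livers, before and after normalization. The normalized means were 8.24 ± 0.11 and 9.18 ± 0.95 (SD, log2, n = 3 each), a change of 0.94 (SE 0.49, limma adjusted p = 0.25). Without CCl4 replicate 3 it was 0.37 (SE 0.09, adjusted p = 0.032, which ran from 0.010 to 0.50 over all settings).

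For miR-23b-3p, the first miRNA of the b cluster, the total signal was 168, 156 and 190.2 with corn oil and 226, 175 and 1586 with CCl4. The value of CCl4 replicate 2 lay inside the corn oil range, that of CCl4 replicate 1 a little above it, and CCl4 replicate 3 far above. After normalization CCl4 replicates 1 and 2 lay at 7.53 and 7.59, below the corn oil values of 8.01, 7.97 and 8.01, and CCl4 replicate 3 lay above them at 8.93 (log2). The change was 0.02 (SE 0.41, limma adjusted p = 0.98), and it was -0.47 (SE 0.04, adjusted p = 0.0028, which ran from 0.0028 to 1.0 over all settings) without CCl4 replicate 3.

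For miR-27b-3p the total signal was 85.6, 85.3 and 94.0 with corn oil and 115, 91.3 and 723 with CCl4. CCl4 replicate 2 again fell within the corn oil range before normalization. After it, CCl4 replicates 1 and 2 at 6.39 and 6.35 lay below the corn oil values of 6.98, 7.19 and 7.14, with CCl4 replicate 3 above them at 7.91 (log2). The change was -0.22 (SE 0.46, limma adjusted p = 0.77), and -0.74 (SE 0.07, adjusted p = 0.0046, which ran from 0.0046 to 1.00 over all settings) without CCl4 replicate 3.

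**Figure D1:**
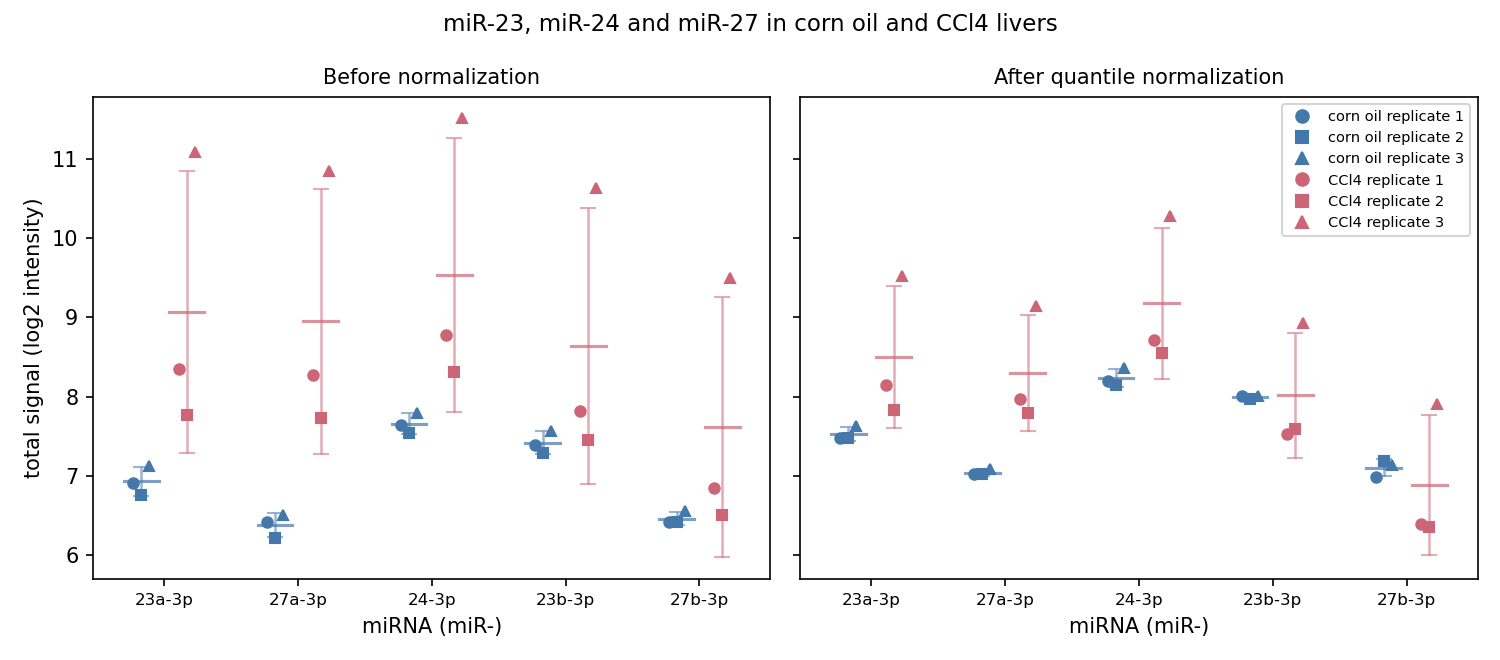
Total signal of each member (log2 intensity) in each liver, before (left) and after (right) quantile normalization; points are livers, horizontal lines group means and bars SDs (n = 3). CCl4 replicate 3 is the highest point for all 5 members, and after normalization the other CCl4 livers lie above the corn oil livers for miR-23a-3p, miR-27a-3p and miR-24-3p and below them for miR-23b-3p and miR-27b-3p, a position below that is lost without normalization.

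In the limma fit 0 of the 5 members were called, against 20 of all 166 miRNAs (12%), a count that was 5 to 7 without CCl4 replicate 1 or any 1 corn oil array, and 1 member, miR-27a-3p, had an unadjusted p under 0.05, against 48 of 166 (28.9%). The groups did not overlap for 3 of the 5 members, all higher with CCl4, whereas 24 of the 166 miRNAs (14.5%) were higher without overlap and 41 (24.7%) lower. Without CCl4 replicate 3, the groups did not overlap for all 5 members, 3 higher and 2 lower, where 39 of 166 miRNAs (23.5%) were higher and 69 (41.6%) lower. All 5 then passed the adjusted p, as did 87 of the 166 miRNAs (52.4%), and 0 of the 5 also passed the fold, against 28 of 166 (16.9%). This held after quantile normalization: without that array, miR-24-3p missed the adjusted p after scaling to the 75th percentile, and miR-23b-3p and miR-27b-3p missed it without normalization. The median change of the members was 0.94, and 0.37 without that array, beside medians of -0.14 and -0.12 over all miRNAs tested. Since whole liver was measured, a changed number of cells of a type and a changed amount of RNA per cell cannot be told apart.

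The direction of miR-27b-3p with all arrays, and of both b cluster members without CCl4 replicate 3, depended on how arrays were scaled to each other. Without normalization the median change of all 166 miRNAs moved from -0.14 to 0.99, and the changes of miR-23b-3p and miR-27b-3p became 1.22 and 1.16. Relative to that median they were 0.22 and 0.16, and those of miR-27a-3p, miR-23a-3p and miR-24-3p were 1.57, 1.14 and 0.88. With CCl4 replicate 3 also left out, the unnormalized changes of miR-23b-3p and miR-27b-3p were both 0.22. The median was then 0.45, and the changes relative to it were -0.23 for miR-23b-3p, -0.24 for miR-27b-3p, 1.17 for miR-27a-3p, 0.67 for miR-23a-3p and 0.44 for miR-24-3p. In that unnormalized fit 2 of the 5 members were called, miR-27a-3p and miR-23a-3p, against 41 of 166 miRNAs (24.7%). Of the miRNAs called with all arrays, 12 were higher and 8 lower after quantile normalization, 11 and 5 after scaling to the 75th percentile, and 18 and 0 without normalization, with 0 members in each.

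A factor common to all miRNAs of an array cancels in the difference between members within it, so differences were taken from the log2 total signals before normalization. A single difference compares probes of unequal brightness and has no meaning as a level, and only its change between groups is read. A changed difference shows that a pair changed unequally, not that either member held still.

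For miR-27a-3p minus miR-27b-3p the difference was 0.00, -0.20 and -0.05 in the corn oil livers and 1.43, 1.21 and 1.35 in the CCl4 livers. The groups were wide apart, and CCl4 replicate 3 lay between the other CCl4 livers. The group means were -0.08 ± 0.10 and 1.33 ± 0.11 (SD, n = 3 each), a change of 1.41 (SE 0.09) or 2.66-fold in favor of miR-27a-3p. The two-sided exact permutation p was 0.1, the smallest that 3 livers against 3 allow, and 0.12 after Benjamini-Hochberg adjustment over 6 differences, so this test cannot pass 0.05. Leaving out CCl4 replicate 3 gave a change of 1.40.

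For miR-23a-3p minus miR-23b-3p the difference was -0.49, -0.52 and -0.44 with corn oil and 0.52, 0.32 and 0.46 with CCl4. Again no CCl4 liver overlapped a corn oil liver, and CCl4 replicate 3 was in the middle of its group. The means were -0.48 ± 0.04 and 0.43 ± 0.11 (SD, n = 3 each), a change of 0.92 (SE 0.06) or 1.89-fold in favor of miR-23a-3p, with an exact permutation p of 0.1. Without CCl4 replicate 3 it was 0.90. The mean of both a cluster members minus the mean of both b cluster members changed by 1.16 (SE 0.07, exact permutation p = 0.1), and by 1.15 without that array.

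A test that borrows its spread from other miRNAs was added after the values had been seen, with every miRNA expressed as a ratio to the b cluster miRNA on the same array and fitted with limma. Relative to miR-27b-3p, the miR-27a-3p ratio passed with an adjusted p of 0.025, as did 10 of 165 miRNAs (6.06%), and 29 of the 165 ratios (17.6%) were higher with CCl4 without overlap. Relative to miR-23b-3p, the miR-23a-3p ratio had an adjusted p of 0.11, with 7 of 165 miRNAs (4.24%) past the threshold and 27 (16.4%) higher without overlap. Without CCl4 replicate 3 the limma adjusted p was 4.9e-04 for the miR-27 pair and 0.0018 for the miR-23 pair, but 72 (43.6%) and 70 (42.4%) of the 165 ratios then passed as well, in either direction. Over all settings and tests, the lowest adjusted p was 4.9e-04 for the miR-27 pair and 0.0018 for the miR-23 pair, both from limma. The highest was 0.25 for each pair, the smallest value possible in the sign-flip test with the replicate number as a block.

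**Figure D2:**
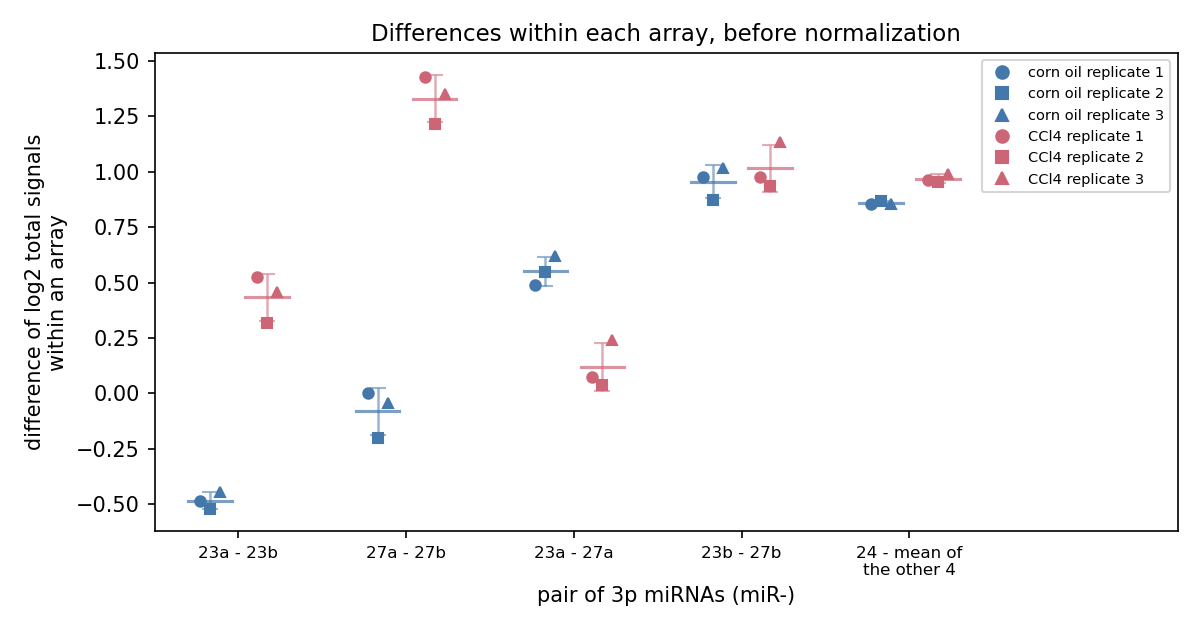
Difference of log2 total signals within each array for pairs of members, before normalization; points are livers, horizontal lines group means and bars SDs (n = 3). Corn oil and CCl4 livers are apart for miR-23a-3p minus miR-23b-3p and miR-27a-3p minus miR-27b-3p, with changes of 0.92 and 1.41, and overlap for miR-23b-3p minus miR-27b-3p.

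Within the b cluster, miR-23b-3p minus miR-27b-3p was 0.98, 0.87 and 1.02 with corn oil and 0.98, 0.94 and 1.13 with CCl4. The groups overlapped, with a change of 0.06 (SE 0.07, exact permutation p = 0.5) and of 0.00 without CCl4 replicate 3, and of 0.24 after quantile normalization. Within the a cluster, miR-23a-3p minus miR-27a-3p was 0.49, 0.55 and 0.62 with corn oil and 0.07, 0.04 and 0.24 with CCl4. All CCl4 livers lay below all corn oil livers, so the signal of miR-27a-3p differed more between the groups than that of miR-23a-3p. The change was -0.43 (SE 0.07, exact permutation p = 0.1), and -0.50 without CCl4 replicate 3, and it was -0.29 after quantile normalization. Of 165 ratios to miR-27a-3p, 128 (77.6%) were lower with CCl4 without overlap, and 93 (56.4%) passed in limma in either direction, where miR-23a-3p had an adjusted p of 0.13. Without CCl4 replicate 3 its limma adjusted p was 0.021, with 141 of 165 ratios (85.5%) past the threshold in either direction. Over all settings and tests, the adjusted p of this pair ran from 0.021 in limma to 0.25. The upper end came from the blocked sign-flip test, which cannot give a lower value.

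miR-24-3p was set against the mean of the 4 other members. That difference was 0.86, 0.87 and 0.86 with corn oil and 0.96, 0.95 and 0.99 with CCl4. The groups did not overlap, but the change was small, at 0.11 (SE 0.01, exact permutation p = 0.1) and 0.10 without CCl4 replicate 3. Of all 166 ratios to the same mean, 15 (9.04%) were higher without overlap and 2 (1.2%) passed in limma, where miR-24-3p had an adjusted p of 0.65. Without CCl4 replicate 3, 100 of the 166 ratios (60.2%) passed in either direction, and miR-24-3p had a limma adjusted p of 0.52. With all arrays, the change of the difference after quantile normalization was 0.43.

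Each member is read by 2 probes of 20 spots each, and these gave like changes. Before normalization the changes of the miR-27a-3p probes were 2.40 and 2.48, and those of the miR-27b-3p probes 1.00 and 1.04 (log2 mean spot signal). Without CCl4 replicate 3 they were 1.60 and 1.68 for miR-27a-3p, and 0.21 and 0.24 for miR-27b-3p. With all arrays the changes were 1.96 and 1.99 for the miR-23a-3p probes, and 1.06 and 1.08 for the miR-23b-3p probes. Leaving out CCl4 replicate 3 lowered them to 1.099 and 1.1295 for miR-23a-3p, and to 0.214 and 0.231 for miR-23b-3p. The miR-24-3p probes gave 1.71 and 1.76 with all arrays, and 0.87 and 0.92 without CCl4 replicate 3. Of the 4 ways to pair a miR-27a-3p probe with a miR-27b-3p probe, 4 separated the groups without overlap, with changes of 1.36 to 1.47. The same held for 4 of 4 probe pairs of miR-23a-3p and miR-23b-3p, with changes of 0.88 to 0.93. These pairings reuse the spots and arrays behind the total signals, so they are not separate tests of the differences above.

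The 5p products gave little signal. miR-23a-5p, miR-23b-5p, miR-27a-5p and miR-27b-5p were detected on none of the 6 arrays, with 0% of their spots well above background. miR-24-1-5p and miR-24-2-5p, which unlike miR-24-3p belong to 1 cluster each, were detected on CCl4 replicate 3 alone, with total signals of 10.8 and 23.8. They share their first 16 bases. The bases after these are in capitals because all that sets the b cluster product apart from the a cluster product lies within them, although both stretches end alike. How much the probes of each also bind the other was not tested.
miR-24-1-5p: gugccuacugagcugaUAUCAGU
miR-24-2-5p: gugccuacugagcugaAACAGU
On that array 0% and 90% of the spots of the 2 miR-24-1-5p probes were well above background, and 75% and 100% for the 2 miR-24-2-5p probes. As neither was detected on a corn oil array, no fold is given. The 3 miR-3074 miRNAs, made from the strand opposite Mir24-2 and Mir24-1 and picked after their values had been seen, were detected on 0 arrays.

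The seeds of the members were searched among all mouse mature miRNAs in the RefSeq table. In that table the seed of miR-27a-3p and miR-27b-3p was found in these alone. The miR-24-3p seed is shared by 4 others, miR-5124b, miR-6369, miR-6410 and miR-6413, none of which was detected on any array.

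The miRNAs with the most similar course over the livers were found as those with the smallest root mean square difference from a cluster's mean normalized log2 profile, after centering each miRNA. For the a cluster over 6 arrays they were let-7e-5p (0.13), miR-125a-5p (0.15), miR-125b-5p (0.19), miR-652-3p (0.20) and miR-500-3p (0.23), against a median of 0.90 over all others. Of these 5, let-7e-5p and miR-652-3p were also among the 5 nearest without CCl4 replicate 3, with miR-3473b, miR-3473a and miR-21a-5p. For the b cluster they were miR-99a-5p (0.09), miR-30e-3p (0.12), miR-98-5p (0.14), miR-103-3p (0.14) and miR-152-3p (0.17), with a median of 0.68. Only miR-99a-5p was also among the 5 nearest without that array, where miR-345-5p, miR-361-5p, miR-677-3p and miR-423-5p joined it. miR-24-3p lay 0.13 from the a cluster profile and 0.53 from the b cluster profile, and 0.13 and 0.49 without that array, where the medians over all others were 0.47 for the a cluster and 0.29 for the b cluster.

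Markers of liver cell types were read in the same livers, and their part in the members' values was not tested. The counts called in these lists stand beside 20 of all 166 miRNAs (12%), and 28 of 166 (16.9%) without CCl4 replicate 3, when 87 of 166 (52.4%) passed the adjusted p. The summed signal of 5 hepatocyte miRNAs, led by miR-122-5p, was 20449, 18947 and 20847 with corn oil and 14955, 17730 and 2750 with CCl4; 0 of 4 tested were called with or without CCl4 replicate 3, and their median change was -1.73, or -0.52 without it, when 2 of 4 passed the adjusted p, both lower. miR-122-5p held rank 3 on all arrays but CCl4 replicate 3, where it was 21, so without that array quantile normalization fixed its change at 0. The 4 endothelial miRNAs, led by miR-126-3p, summed to 675, 578 and 694 with corn oil and 877, 857 and 3820 with CCl4. Of these, 0 of 3 tested were called with or without that array, with a median change of 0.04, and 0.09 without it, when 1 of 3 passed the adjusted p, higher with CCl4.

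The 7 mesenchymal and stellate miRNAs, led by miR-199a-3p, summed to 82.0, 67.2 and 109 with corn oil and 643, 255 and 1236 with CCl4. In this list 2 of 4 tested were called, miR-199a-5p with a change of 1.34 and miR-199b-5p with 2.28, both were also called without CCl4 replicate 3, the median change was 1.31 (1.35 without it), and miR-214-5p was detected on no array. The 6 leukocyte miRNAs, led by miR-223-3p, summed to 91.0, 77.7 and 90.7 with corn oil and 475, 346 and 457 with CCl4, with 0 of 3 tested called and a median change of 0.52. Without that array 1 of 3 was called, miR-223-3p with a change of 1.75, 2 of 3 passed the adjusted p, and the median was 0.97. The 3 red cell miRNAs, led by miR-451a, summed to 466, 754 and 699.7 with corn oil and 730.4, 315 and 2144 with CCl4, with 0 of 2 tested called with or without that array and a median of -0.55, or -0.72 without it. The 8 miRNAs linked to fibrosis of the liver or other organs include miR-24-3p and are led by miR-21a-5p. Of these, 0 of 8 were called with or without CCl4 replicate 3. Their median change was 0.02, or 0.19 without that array, when 3 of 8 passed the adjusted p. Of those 3, 2 were higher, miR-21a-5p and the member miR-24-3p, and 1 lower, miR-192-5p, which is also in the hepatocyte list. The authors describe some of the 8 as promoting fibrosis and others as opposing it, so the pooled median has no single foreseen direction.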

How the data were processed

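Total liver RNA of 3 CCl4-treated and 3 corn oil-treated mice was profiled on 1-color arrays, 1 per mouse. The authors made the scanner output with Feature Extraction 11.0.1.1; its deposited values are background-subtracted intensities, not normalized between arrays, with undetected totals at 0.1. Detection and background marks are deposited flags of 0 or 1, another kind of value. The authors' series table holds quantile-normalized intensities of 111 miRNAs on a linear scale, with a median of 148 in every column. It was used as an alternative only, and its corn oil columns 1, 2 and 3 carry the rank order of scanner arrays 2, 3 and 1.

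Total signals of miRNAs detected on all 6 arrays were log2 transformed and quantile normalized. A linear model with treatment alone was fitted by lmFit and moderated by eBayes (limma 3.58.1, R 4.3.3). Within-array differences were tested by two-sided exact permutation, adjusted over 6 differences. Permutations used scipy 1.17.1 in Python 3.11.15, tables pandas 2.3.3 and numpy 2.4.6, and plots matplotlib 3.10.9. The members and lists were chosen with earlier results of these data known. Named miRNAs are the members, their 5p products, list members and the 5 nearest to each cluster profile; seed matches and miR-3074 were added by sequence and position. Sequences are those of RefSeq GRCm38.p6, while the arrays were designed on another build. Alternatives covered the signal per miRNA, normalization, filter, moderation, array weights, block and each array left out. The authors' own comparison columns, which hold fold changes and p-values, were not used. With 3 arrays a group, array number limits the precision.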

Additional observations from a re-analysis of the deposited data

Results flagged for a closer look

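A pair of 5p products outside the fitted miRNAs were flagged as detected in 1 CCl4 liver and in no corn oil liver. miR-24-1-5p had a total signal of 10.8 in CCl4 replicate 3, and miR-24-2-5p had 23.8 there. Both were undetected on the other 5 arrays, although a miR-24-2-5p probe had a mean spot signal of 15.5 in CCl4 replicate 2, with 5% of its spots well above background. CCl4 replicate 3 had 334 miRNAs detected and a summed detected signal of 316413, against 186 to 245 miRNAs and 167865 to 177351 on the other arrays.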

How the results depend on the processing

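Of 210 values recomputed under alternatives, 172 kept direction and side of the threshold (limma or exact permutation adjusted p under 0.05, counts within 1.5 times). For the within-array differences the exact permutation and sign-flip tests cannot pass 0.05 (smallest p 0.1, 0.2 or 0.25). With those tests only the direction could change, so the total of 172 overstates how much was open to change. The causes of the other moves were not tested. Added after the data had been seen were the normexp background step, limma over ratios, and 75th percentile scaling or no normalization combined with leaving out CCl4 replicate 3. The changes of miR-23a-3p, miR-24-3p and miR-27a-3p and all 6 within-array differences kept their direction in all of them. Array weights gave 0.53, -0.43, 0.44, 0.88 and -0.69 for miR-23a-3p, miR-23b-3p, miR-24-3p, miR-27a-3p and miR-27b-3p, all past the adjusted p, as were 89 of 166 miRNAs (53.6%), and the second reversed; 31 miRNAs and 0 members were called. miR-27b-3p reversed to 0.0014 with 75th percentile scaling and 1.16 with no normalization. With 75th percentile scaling and CCl4 replicate 3 left out, miR-23a-3p, miR-23b-3p, miR-27a-3p and miR-27b-3p were at 0.48, -0.42, 0.98 and -0.42, all past the adjusted p as were 101 of 166 miRNAs (60.8%), and miR-24-3p was at 0.25 and not past it. With no normalization and the same array left out, miR-23a-3p, miR-24-3p, miR-27a-3p and miR-27b-3p were at 1.12, 0.89, 1.62 and 0.22, the first 3 past the adjusted p as were 88 of 166 miRNAs (53.0%), 2 members were called, and 41 miRNAs in all. Leaving out each array in turn gave ranges of 0.48 to 1.34 for miR-23a-3p, -0.47 to 0.30 for miR-23b-3p, 0.37 to 1.27 for miR-24-3p, 0.86 to 1.55 for miR-27a-3p and -0.74 to 0.050 for miR-27b-3p, with 5 to 28 miRNAs and 0 members called. In limma over ratios, the miR-27 pair passed at 1.41 with 6 arrays, and without CCl4 replicate 3 the miR-27 pair at 1.40, the miR-23 pair at 0.90 and miR-23a-3p minus miR-27a-3p at -0.50 passed. Called miRNAs numbered 32 with detection on all arrays of 1 group, 7 with over 50% of spots well above background, 12 in the deposited values and 4 after the normexp step, with 0 members in each.

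With the replicate number as a block, 6 miRNAs were called instead of 20 and 0 members, and each within-array difference kept its value, with a smallest possible sign-flip p of 0.25. In their deviations from the group means, same-numbered livers correlated at -0.18, 0.11 and 0.03, and differently numbered livers at -0.27 to 0.24. No pairing by number was seen, but 3 livers a group cannot exclude it.

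All members were well above background on every spot. The 5p products were near or under detection.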
